A study of Mus musculus with 12 samples.

Results

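The 12 insertion lists held 1543170 different positions, and 110838 of them (7.18%) lay at most 2 kb upstream of the exon to which they had been assigned. These near insertions are described here. A position was a unique combination of chromosome, coordinate and strand, and its distance was the one listed for it, measured to the nearest exon downstream in a protein-coding gene, with first exons passed over. No enrichment value entered the choice. The near insertions fell upstream of 33025 different exon starts in 12676 genes, which is 62.1% of the 20409 genes in the deposited tables. The limit of 2 kb did not mark a break in the lists: 4200 positions lay in the last 100 bp inside it and 4161 in the first 100 bp outside.

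An ORFtag cassette is a retroviral insertion with a promoter of its own, a resistance gene for selection, the coding sequence of a protein tag, and a splice donor. A transcript that starts in the cassette is spliced to an acceptor downstream of the insertion, and the cell then makes the tag fused to the part of the protein that follows this acceptor. An insertion far upstream in a long first intron usually reaches the second exon, whereas insertions close to an exon can also lie in short introns deep inside a gene, where the fusion would lack more of the natural N terminus. An insertion in the opposite orientation cannot be spliced in this way, and the same lists made after reversing the strand of every insertion therefore served as the control.

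All groups were diploid mouse embryonic stem cells of the AN3-12 line, each transduced with the cassette in a mixture of 3 reading frames and selected with G418. Each screen used 1 clonal reporter line, so that clone and screen cannot be told apart. In the activator screen the tag was TetR, the reporter 7xTetO-pMYLPF-Puro-IRES-GFP, and the sort took cells whose GFP had risen. The repressor screen also used TetR as tag, the reporter pEF1-BFP-7xTetO-pPGK-Puro-IRES-GFP, and cells that had lost GFP were sorted. The third screen, named PTGR for post-transcriptional gene regulators, combined the λN tag with the reporter Puro-IRES-GFP-10xBoxB. Cells of low GFP were sorted repeatedly, the boxB sites were then removed with Cre after 4-hydroxytamoxifen, and cells whose GFP rose again were sorted last. Unsorted cells of each screen were mapped in the same way, and every screen had 2 sorted and 2 unsorted replicates. The material was genomic DNA, so the cell type could not be checked against expressed markers. The lists hold positions without read numbers, so all intervals and the p-values from summed lists cover counting error only.

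Depth and shared positions differed between libraries. The repressor unsorted lists gave nearly all positions 2 times and PTGR sorted replicate 2 repeated 12.8% of its lines, and each position was counted once. Sorted libraries held 1652 to 6305 near insertions and unsorted libraries 5227 to 23383. Most near positions (94.4%) were listed in a single library, but some pairs of libraries had many in common. Repressor sorted replicates shared 470 near positions, 18.8% of replicate 1 and 28.5% of replicate 2. PTGR sorted replicate 1 shared 1226 near positions (19.4%) with PTGR unsorted replicate 1 and 19 with replicate 2, while PTGR sorted replicate 2 shared 102 and 412. Activator sorted replicate 2 shared 349 (16.5%) with activator unsorted replicate 2 and 30 with replicate 1, and sorted replicate 1 shared 50 and 98. In the repressor screen both sorted replicates shared more with unsorted replicate 2, namely 237 against 197 and 154 against 83. Whether these were the same cells was not tested. The Fisher's exact tests per gene and the shares of whole libraries, described below, were computed again with positions shared by sorted replicates counted once. The model fits per gene, the reversed calls per gene, the median distances and the values at called genes were not computed again in this way.

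Near insertions lay mostly in introns. In the mouse reference (mm10), 79.8% of them lay in an intron of the assigned gene, 11.7% upstream of the gene and 8.46% in an exon, by GENCODE vM21. Their median distance to the exon was 842 bp. The base after the listed distance was the start of a non-first exon of the same gene for 99.6% of positions, and of 32279 such starts that were read, 99.6% were preceded by AG, the last bases of nearly all introns. Bases 5 to 24 before the exon were C or T in 74.1% on average, where the polypyrimidine tract of an intron lies. For 8 genes on which later results turn, the acceptor with the most sorted near insertions is shown. Each line gives 24 intron and 6 exon bases, 5′ to 3′ on the gene's strand, from the RefSeq copy of GRCm38, with the terminal AG of the intron in capitals.
Bicral exon 5, chr17:46814033-46814062, minus strand: tcctcttggctctttgttctacAGgctcag
Gon4l exon 22, chr3:88898081-88898110, plus strand: acctcaacaaaatggtgcttttAGgaaaca
Zmiz1 exon 23, chr14:25661243-25661272, plus strand: ctcctgctctctcctcctccacAGatgccc
Morc1 exon 21, chr16:48612265-48612294, plus strand: ttaaatgtagaacttgtttttcAGgtttgg
Zmynd8 exon 14, chr2:165807924-165807953, minus strand: tgtttccaccctgcctggctgtAGctatag
Pml exon 2, chr9:58247433-58247462, minus strand: tcacttctctccttggttcactAGcaagcc
Maco1 exon 7, chr4:134812693-134812722, minus strand: atgctgcctttctccctttcccAGgctgga
Smpd4 exon 2, chr16:17621418-17621447, plus strand: gattttgtctttgtttttccacAGtggttc

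Near positions were assigned to later exons than the rest. Only 36.0% of near positions were assigned to exon 2, against 88.3% of the positions farther away, up to 200 kb. Exons 4 to 9 took 30.6% of near positions and exon 10 and later 21.6%, against 2.50% of the farther positions for the latter. The highest exon number was 188. This split follows in part from the rule, since a short distance is more easily met where introns are short, and it is given without a test. Exon numbers are those of the transcript listed for an insertion, so that 1 exon can carry different numbers in different transcripts.

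Near insertions made up a larger share of the sorted than of the unsorted libraries in the activator and repressor screens. As a share of all insertions within 200 kb, they were 11.7% (95% Wilson interval 11.3 to 12.2) and 14.4% (13.8 to 14.9) in the 2 activator sorted replicates, against 9.34% and 9.45% in the unsorted ones. The repressor screen had 11.2% (10.8 to 11.6) and 10.9% (10.4 to 11.4) in sorted against 9.46% and 9.33% in unsorted libraries. The groups did not overlap in either screen. In the PTGR screen the shares were 10.3% and 9.47% in sorted and 10.0% and 9.66% in unsorted libraries, and the groups overlapped. Over the 3 screens the sorted libraries were higher by 1.79 percentage points (exact permutation test within screens, two-sided, p = 0.0278, smallest possible 0.00926, higher in 5 of 6 same-numbered pairs). With same-numbered sorted and unsorted libraries kept as pairs, it did not pass (exact permutation test over pairs, p = 0.0625). Within 1 screen, an exact permutation of 2 against 2 libraries cannot go below p = 0.333, and the differences of 3.65 points for the activator, 1.65 for the repressor and 0.0707 for the PTGR screen are therefore descriptions. With a limit of 1000 bp in place of 2000 bp the difference was 0.768 points and did not pass (exact permutation test, p = 0.0926).

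After the strand was reversed, the difference had the opposite sign. The reversed lists hold the same insertions, so this difference is not independent of the one above. Reversed near insertions made up 7.39% and 6.10% of the activator sorted libraries, below the 8.47% and 8.39% of the unsorted ones. Repressor libraries held such insertions at 6.38% and 6.45% in the sorted and 8.56% and 8.60% in the unsorted replicates. The PTGR values were 9.28% and 9.12% in sorted and 8.70% and 9.31% in unsorted libraries. Over the 3 screens the sorted libraries were lower by a mean difference of -1.22 percentage points (exact permutation test, two-sided, p = 0.0370, n = 2 against 2 in each screen), and with the pairs kept this did not pass either (exact permutation test over pairs, p = 0.0938). For each reversed near insertion there were 1.67 and 2.61 near insertions in the activator sorted libraries and 2.15 and 2.00 in the repressor sorted ones, against 1.04 to 1.17 in the 6 unsorted libraries.

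**Figure D1:**
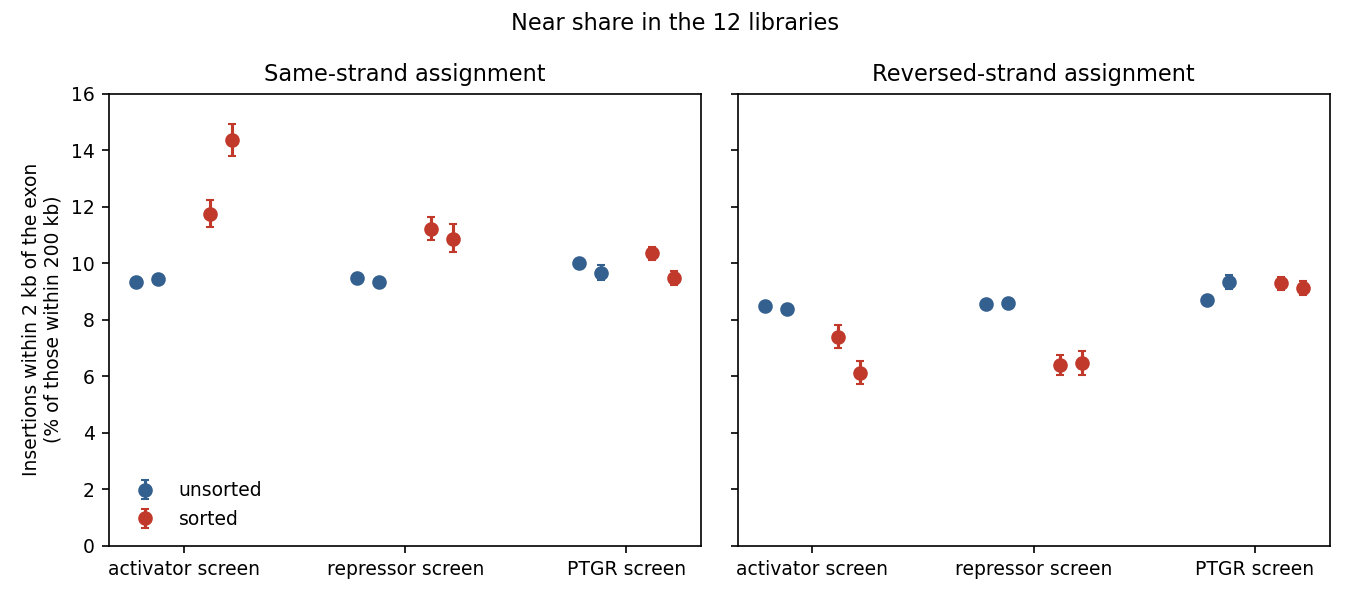
Each point is 1 library, and its height is the percent of insertions within 200 kb that lay within 2 kb of the exon, for the strand as mapped (left) and reversed (right), with 95% Wilson intervals that cover counting error only. The 4 sorted libraries of the activator and repressor screens lie between 10.9% and 14.4% on the left, above all 6 unsorted libraries, and between 6.10% and 7.39% on the right, below all 6.

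A difference between sorted and unsorted libraries in the exon reached was not detectable over the 3 screens. Exon 2 took 41.9% and 46.0% of near insertions in the repressor sorted replicates, against 35.4% and 36.1% in the unsorted ones, a difference of 8.22 points. The activator values were 34.5% and 38.4% in sorted and 34.6% and 35.4% in unsorted libraries, and those of the PTGR screen 33.4% and 38.4% against 37.0% and 37.9%. Over the 3 screens the difference of 2.68 points did not pass the test (exact permutation test, two-sided, p = 0.185, n = 2 against 2 in each screen). At the genes called below, exon 2 took 47.8% and 55.6% of the near insertions in the repressor sorted replicates, while at all other genes it took 34.5% and 33.0%. At the same called genes it already took 47.0% and 45.4% in the repressor unsorted libraries.

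In both repressor sorted replicates the near insertions lay farther from the exon. Sorted replicates had median distances of 970 and 1029.5 bp, and unsorted replicates 838 and 841 bp. The bin closest to the exon, 0 to 249 bp, held 13.7% and 14.5% of near insertions in the sorted and 17.8% and 17.0% in the unsorted libraries. In the activator screen the medians were 807 and 893 bp in sorted and 843 and 834 bp in unsorted libraries, with no separation of the groups. PTGR medians were 824 and 838 bp in sorted and 850 and 844 bp in unsorted libraries. None of these differences was tested, since 2 against 2 libraries cannot reach 0.05. At the repressor genes called below, the medians were 1066 and 1105 bp in the sorted and already 1087.5 and 1032 bp in the unsorted replicates. At all other genes the repressor medians were 857 and 890 bp in sorted and 831 and 836 bp in unsorted replicates.

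**Figure D2:**
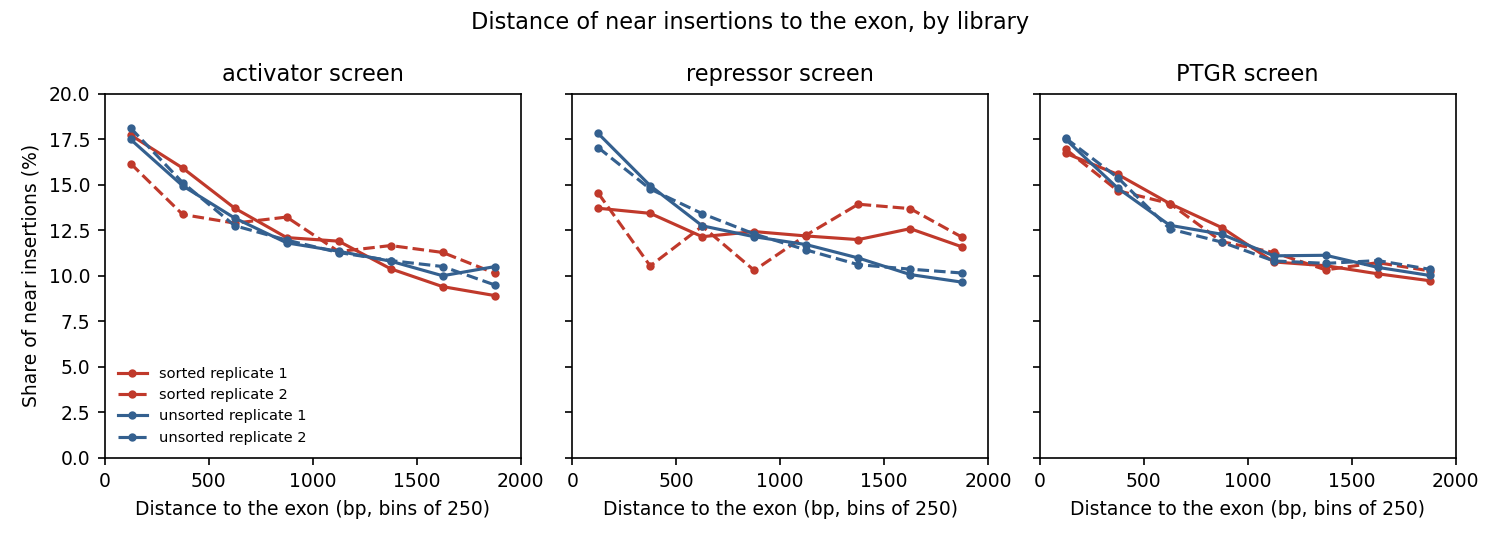
Share of a library's near insertions in each bin of 250 bp of distance to the exon, with a line for each replicate of the sorted and unsorted libraries of the 3 screens. In the repressor screen the sorted lines start at 13.7% and 14.5%, below the 17.8% and 17.0% of the unsorted lines.

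For each gene, the near insertions of both sorted replicates were set against those of all 6 unsorted libraries, called the background, with a one-sided Fisher's exact test. Genes needed at least 3 sorted near insertions, which lets genes enter mainly through the sorted libraries, and calls required both an adjusted p under 0.001 and a log2 odds ratio no lower than 1. Calls were made at 81 of 181 tested genes for the activator (44.8%), at 96 of 208 for the repressor (46.2%) and at 26 of 1178 for the PTGR screen (2.21%). Another 1462, 1159 and 4269 genes had 1 or 2 sorted near insertions and could not be tested. Of the called genes, 73, 90 and 21 reached that odds ratio in both sorted replicates, and 45, 43 and 9 were called in each replicate alone. Without activator sorted replicate 2 the activator count fell to 53, without repressor sorted replicate 1 the repressor count fell to 55, and against the unsorted libraries of its own screen alone the PTGR count fell to 12.

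In both TetR screens the called genes took up a large part of the sorted near insertions. They held 36.0% and 64.7% of the near insertions in the activator sorted replicates, against 1.34% and 2.09% in that screen's unsorted libraries. Repressor genes held 56.0% and 57.4% in sorted and 3.06% and 2.75% in unsorted replicates, and PTGR genes 7.25% and 6.42% in sorted and 1.02% and 1.47% in unsorted replicates. The same PTGR genes held 4.57% and 4.42% in the repressor sorted replicates and 0.538% and 0.284% in the activator sorted ones. In the repressor sorted replicates, Morc1 gave 111 of these 114 and 71 of these 73 insertions. These shares describe genes that were chosen on the same sorted libraries. Without the called genes, near insertions made up 9.13% and 8.38% of the activator sorted libraries and 7.58% and 7.29% of the repressor sorted ones, below the 9.27% to 9.40% of the unsorted libraries of these screens. The genes left out were chosen for many sorted near insertions in the same libraries, which can lower this share. Their farther insertions were left out as well, so the fall is not fixed by the choice. It is given as a description.

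Fisher's test ignores the spread between replicates. A quasi-likelihood fit in edgeR of each screen's 2 sorted against its own 2 unsorted libraries gave 63 genes higher in sorted at an adjusted p below 0.05 for the activator (2.74% of 2297 genes tested) and 62 for the repressor screen (3.04% of 2040). Of these, 62 and 62 were among the genes called by Fisher's test. With the replicate number as a block, edgeR gave 34 and 42 genes higher at the same threshold. Without the block it also gave 49 activator genes (2.13%) and 94 repressor genes (4.61%) that were lower in sorted, a direction that the one-sided test did not address. In the PTGR screen edgeR called 0 of 2379 genes, with 27 higher genes at an unadjusted p below 0.05, and DESeq2 called 2, Morc1 and Trim13. The PTGR calls therefore rest on summed counts and none of them passed edgeR, which takes the spread between replicates into account.

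In the activator screen the most sorted near insertions were at Bicral, a subunit of a BAF chromatin remodelling complex, which had 125 and 172 sorted near insertions, or 612 and 815 per 10000 near insertions of the library, while the unsorted libraries had 21.0 to 32.2 per 10000 (median 27.0). Both sorted replicates lay above all unsorted libraries, and the log2 odds ratio was 4.77 ± 0.12 (SE from counting error; Fisher's exact test, adjusted p = 1.21e-249). Setd1b, a histone H3 lysine 4 methyltransferase, followed with 215 and 303 per 10000 against 4.70 to 8.15 (log2 odds ratio 5.51 ± 0.24). Of its sorted near insertions, 68.5% lay upstream of the annotated gene and 92.6% were assigned to exon 2, where the coding sequence begins. Tfe3, a transcription factor of the basic helix-loop-helix family, reached 176 and 303 per 10000 against 2.57 to 5.74 (6.06 ± 0.28). The forkhead factor Foxn1 had 201 and 242 per 10000 against 1.91 to 7.93, and Relb, an NF-κB subunit, 186 and 227 against 1.82 to 4.08.

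Replicates differed at some of these genes by more than at others. Foxo6, another forkhead factor, had 9 and 84 sorted near insertions, and Fbxl19, a CpG-binding F-box protein, 8 and 49. Both were called in each replicate alone. Rela, the p65 subunit of NF-κB, had 0 and 15, so its call rests on replicate 2. Nfe2l2, the master regulator of the oxidative stress response, had 3 and 9 near insertions and none in the background, which is at least 94.0-fold higher if the summed background is set to 3 insertions. Foxo1, Mllt3 and Pygo2 were also without background near insertions, with bounds of 31.3-fold, 23.5-fold and 23.5-fold. Mtf1, the metal-responsive transcription factor, had 29 and 31, and Gli1, a zinc finger effector of Hedgehog signalling, 23 and 32. All 55 sorted insertions within 200 kb at Gli1 were near ones, as were 38 of its 43 background insertions.

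In the repressor screen Morc1, Ncor1 and Zmynd8 had the most sorted near insertions. Morc1, a GHKL ATPase known for transposon silencing in germ cells, had 445 and 430 near insertions per 10000 in the sorted libraries, against 8.15 to 25.2 (median 16.7) in the unsorted ones. Its log2 odds ratio was 4.78 ± 0.16 (Fisher's exact test, adjusted p = 1.47e-153). Ncor1, the nuclear receptor corepressor that recruits a histone deacetylase, had 397 and 357 per 10000 against 1.91 to 17.6 (5.36 ± 0.19). Zmynd8, a reader of histone modifications, had 365 and 254 against 15.3 to 23.1 (3.95 ± 0.16). Next were Gm35315, Zfp57, a KRAB zinc finger protein that binds imprinted regions, and Kdm2b, which brings a Polycomb complex to CpG islands. These had 192 and 357, 200 and 285, and 212 and 224 per 10000, and all 6 values lay above the highest unsorted value of 15.8 among the 3 genes. Sumo2, a small protein modifier that is linked to other proteins, had 168 and 224 per 10000 against 1.53 to 5.74, and 97.5% of its sorted near insertions lay upstream of the gene. Rif1 and Atf1, a telomere and replication timing protein and a CREB family factor, completed the 10 genes with the most sorted near insertions.

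Counting positions shared by the repressor sorted replicates only once left 90 called genes, 87 of them among the 96. At the 10 leading repressor genes, 12.5% to 31.7% of the different sorted positions were in both sorted replicates, with Kdm2b lowest and Sumo2 highest. At the leading activator genes this share ran from 0% at Gli1 to 15.8% at Gon4l, and at the leading PTGR genes from 0% to 7.14%.

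In the PTGR screen the leading genes had lower rates. Maco1, a transmembrane protein also called macoilin, had 45 and 30 sorted near insertions, or 71.4 and 54.1 per 10000, against 0 to 15.3 in the unsorted libraries (median 1.52). Its log2 odds ratio was 4.07 ± 0.29 (Fisher's exact test, adjusted p = 1.31e-42; edgeR adjusted p = 0.973). Its highest unsorted values came from the PTGR screen itself, where 24 of its 70 different sorted positions were also found. Trim13, a RING-type ubiquitin ligase, had 74.5 and 43.3 per 10000 against 0.510 to 6.84 (4.29 ± 0.31), and Tnip1, a ubiquitin-binding adaptor of NF-κB signalling, 68.2 and 46.9 against 5.10 to 13.4 (2.99 ± 0.24). Smpd4, a sphingomyelinase, had 55.5 and 25.3, and Virma, a subunit of the RNA m6A methyltransferase complex, 34.9 and 12.6. The RNA silencing protein Ago1 had 11.1 and 27.1 per 10000 against 1.83 to 5.74, and Eif4enif1, a partner of the cap-binding protein eIF4E, 15.9 and 21.6 against 0.606 to 7.65. Optn, Parp14 and Tmem131 lay between 14.3 and 23.8 per 10000 in both replicates.

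**Figure D3:**
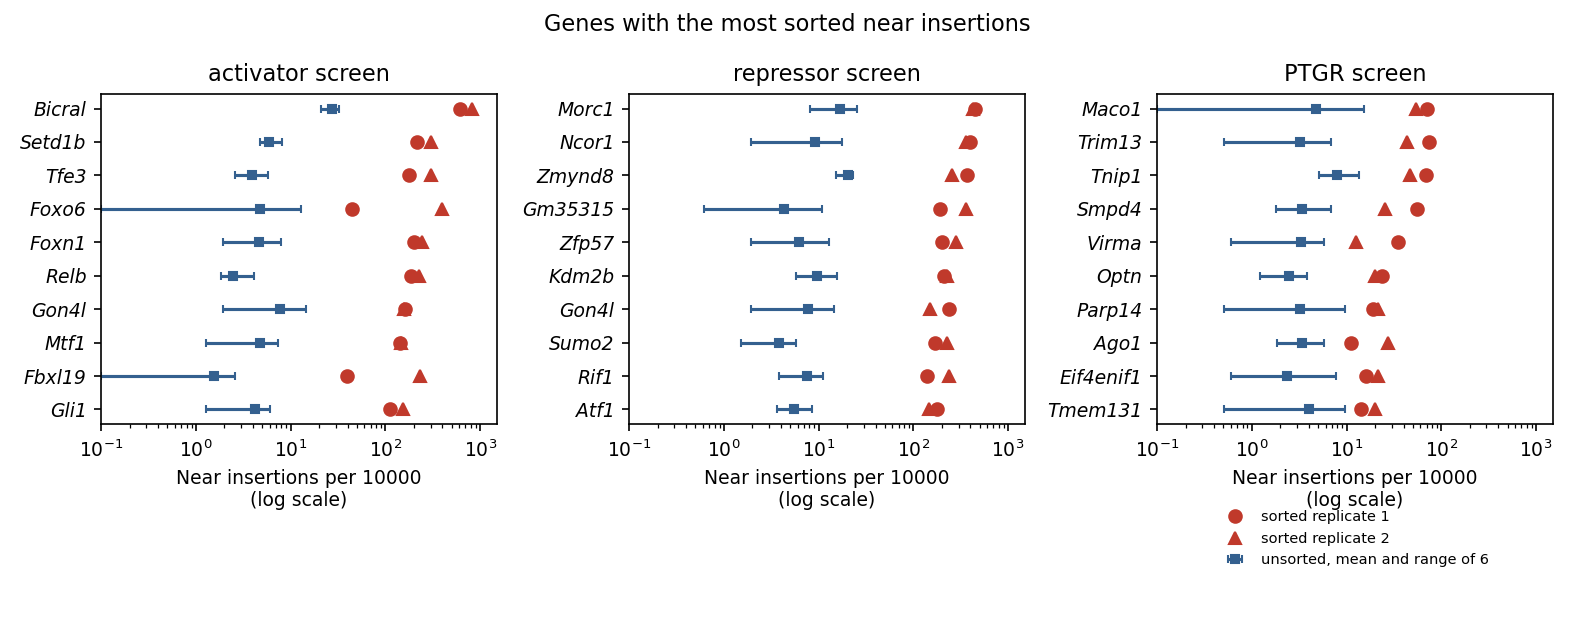
Near insertions per 10000 near insertions of the library (log scale) at the 10 genes per screen with the most sorted near insertions, for each sorted replicate and as the mean and range of the 6 unsorted libraries, where a bar that reaches the left edge stands for a library with 0. Sorted values lie from 39.2 to 815 (activator), from 140 to 445 (repressor) and from 11.1 to 74.5 (PTGR), above the unsorted range of the same gene.

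Genes of known complexes were counted over whole lists, beside the 44.8% of all tested activator genes that were called. The lists of all 3 screens were chosen with earlier results of these data known, so their counts are no independent evidence. A listed gene could be called only if it had at least 3 sorted near insertions. All 5 near-tested members of the 6 YAP, TAZ and TEAD genes, a coactivator and DNA-binding pair of the Hippo pathway, were called in the activator screen: Yap1, Wwtr1, Tead1, Tead2 and Tead4. Together they held 150 sorted and 75 background near insertions. Of 31 forkhead genes, 20 had any near insertion, 7 were tested and all 7 were called (Foxj2, Foxn1, Foxn4, Foxo1, Foxo3, Foxo4 and Foxo6). Foxo4 was also called in the repressor screen. Of 33 Mediator genes, 4 were tested and 3 called (Med12, Med14 and Med25), and of 28 BAF genes also 4 and 3 (Bicra, Bicral and Ss18). Of 6 COMPASS methyltransferase genes, 2 were tested and both were called (Kmt2b and Setd1b). Of 5 genes for p300, CBP and the p160 coactivators, 3 were tested, and Ep300 and Ncoa3 were called. Ep300 had 2 and 3 sorted near insertions in the activator screen and was not called in replicate 1 alone. It was also called in the PTGR screen, with 11 and 0. Of 9 genes of the Wnt transcription complex, 3 were tested, and Pygo1 and Pygo2 were called. Among the genes that the study names for its activator screen, 7 of 12 were called, a list chosen on these samples and no independent evidence. The other 5 had at most 2 sorted near insertions. Against these counts, the median log2 odds ratio over all tested activator genes was 2.82.

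In the repressor screen, where 46.2% of all tested genes were called, 7 of 15 genes for HP1 and the H3K9 methylation machinery were tested and all 7 were called, namely Trim28, Setdb1, Atf7ip, Ehmt2, Tasor, Cbx3 and Cbx5. Of 33 Polycomb genes, 5 were tested and 4 called (Pcgf6, Kdm2b, Phc1 and Cbx7). Of 10 genes of the CoREST and LSD1 complex, 2 were tested and both called (Hmg20b and Rcor2). Of 25 Sp and Kruppel-like factors, 5 were tested and 4 called (Sp1, Sp2, Sp3 and Klf8). Genes with a zinc finger symbol (Zfp or Zbtb) numbered 465, of which 303 had a near insertion, 28 were tested and 20 called. Trim28, the corepressor bound by KRAB zinc finger proteins, had 10 and 7 sorted near insertions against 8 in the background. Of all tested PTGR genes 2.21% were called. Among them, Argonaute and GW182 proteins of the microRNA pathway gave 3 calls among 4 tested of 7 genes (Ago1, Tnrc6a and Tnrc6b). CCR4-NOT deadenylase subunits gave 2 among 4 tested of 15 (Cnot2 and Cnot3). Cap-binding and decapping factors gave 2 among 4 tested of 16 (Dcp1a and Eif4enif1). TRIM ligases gave 3 calls among 7 tested of 67 genes (Trim13, Trim26 and Trim71) and PARP enzymes 1 among 3 tested of 14 (Parp14). None of 10 nonsense-mediated decay genes was called. Of these, 3 were tested (Smg1, Smg9 and Upf2), and Smg1, with 3 and 3 sorted near insertions against 48, had a log2 odds ratio of 0.04 ± 0.62. Smg9 had 4 and 2 against 8 (2.63 ± 0.78) and Upf2 2 and 1 against 7 (1.82 ± 1.00). These 2 were higher in sorted but rest on few insertions. Of 78 ribosomal protein genes, 75 had a near insertion. None had enough sorted near insertions to be tested in the activator and repressor screens, and 8 were tested and 0 called in the PTGR screen. The median log2 odds ratio over all tested genes was 3.33 for the repressor and 0.54 for the PTGR screen.

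Near and farther insertions of a gene could be compared within the same libraries. At each gene with at least 10 sorted and 10 background insertions within 200 kb, a two-sided Fisher's exact test asked whether the near share differed. In the activator screen it was higher in sorted libraries at 23 of 355 genes (6.48%) and lower at 2 (0.563%). In the repressor screen it was higher at 28 of 319 (8.78%) and lower at 1 (0.313%), and in the PTGR screen higher at 6 of 3585 (0.167%) and lower at 2 (0.0558%). Background insertions came from 3 screens, and with the unsorted libraries of the same screen alone the counts higher in sorted fell to 13, 23 and 0. Leaving out activator sorted replicate 2 left 4 activator genes higher, replicate 1 left 15, repressor sorted replicate 1 left 13 repressor genes, and PTGR sorted replicate 1 left 3 PTGR genes.

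The 3 genes with the largest rise in the activator screen had far log2 odds ratios below 1 or no farther sorted insertion. Zmiz1, a coactivator of the PIAS-like family, had 8 and 17 near insertions in the activator sorted libraries and only 6 farther ones, so 80.6% were near, against 8.65% of its background insertions (two-sided Fisher's exact test, adjusted p = 3.12e-16). Its near log2 odds ratio was 4.12 ± 0.38 and its far one -0.86. Of the 25 near insertions, 22 were assigned to exon 23 of 24, the acceptor shown above, with 11.2% of the coding sequence from that exon on. Only 7 of 34 background near insertions were assigned there. Zmiz2, its paralogue, had 9 near and 1 farther sorted insertions against 8 and 160, all near ones in replicate 2. Med12, a subunit of the Mediator kinase module, had 10 near and 0 farther against 7 and 28.

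Among repressor genes, Pml, the scaffold of PML nuclear bodies, had 41 and 26 sorted near insertions. Near insertions were 75.9% and 68.4% of its insertions in the 2 sorted replicates, against 7.73% in the background (adjusted p = 9.60e-39, two-sided Fisher's exact test). All 67 lay upstream of exon 2, at a median of 382 bp. The log2 odds ratio was 5.12 near and 0.34 far, although 549 background insertions at Pml were far. Ubap2, a ubiquitin-associated domain protein, had 10 and 1 near and 0 farther sorted insertions against 3 and 50. At Ncor1 the near share was 38.7% and 43.4% in the sorted replicates and 9.42% in the background (adjusted p = 2.53e-35, Fisher's exact test), and at Zmynd8 42.7% and 40.0% against 21.7%.

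Gon4l, a nuclear protein known as a partner of the transcription factor YY1, was called on near insertions in both TetR screens, as were Foxo4 and Tada3. Gon4l had 33 and 33 near insertions in the activator and 60 and 25 in the repressor sorted libraries, and 4 and 3 in the PTGR ones. Its log2 odds ratios were 4.30 ± 0.24 and 4.67 ± 0.23 in the first 2 screens, from comparisons that share the background, and -0.47 ± 0.57 in the PTGR screen. Of these insertions, 60 of 66 and 79 of 85 were assigned to exon 22, and 61 of 80 in the background. In the longest coding transcript of GENCODE vM21 this is exon 21 of 31, with 33.3% of the coding sequence from there on. Its far log2 odds ratios were 2.56 (activator) and 0.31 (repressor). Of 57 different activator sorted positions at Gon4l, 16 were also listed in sorted libraries of other screens.

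In the PTGR screen, Smpd4 had a near share of 89.7% and 87.5% in the sorted replicates against 45.7% in the background (Fisher's exact test, adjusted p = 0.000353). All 49 sorted near insertions were assigned to exon 2. Cnst, a connexin trafficking protein, had 1 and 14 near insertions, 14 of them at exon 10, and Tmem131, a collagen secretion factor, 9 and 11. Shares fell at Sun2, a nuclear envelope protein, from 35.7% in the background to 0 of 43 sorted insertions, which allows a share of up to 6.98%, and at the nonsense-mediated decay kinase Smg1 from 31.2% to 5.13%. In the activator screen they fell at Ppp1r10, from 37.5% to 2.33%, and at Bicral, from 31.8% to 20.9%. At Riok2, in the repressor screen, the share was 0 of 195, which allows up to 1.54%, against 5.36%. At Bicral the fall rests on replicate 2, with 16.0% of 1073 insertions near, since replicate 1 had 35.9% of 348. With positions within 5 bp merged, the rise of 42.2 points at Cnst became 4.12 (adjusted p = 1.0, Fisher's exact test). With a background of only the 2 unsorted libraries of that screen, none of these changes passed. They were then 34.3 points at Smpd4, 27.5 at Cnst, 22.6 at Tmem131, -40.0 at Sun2, -11.8 at Smg1, -10.2 at Ppp1r10, -0.74 at Bicral and 0 at Riok2.

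Over all called genes, near and far values were as follows. Of the 81 activator genes, 72 had a far log2 odds ratio, with a median of 4.91 and a range from -2.27 to 6.85, and it was below 1 at 11. Of the 96 repressor genes, 87 had one, with a median of 3.98, and it was below 1 at 15. Of the 26 PTGR genes, all had one, with a median of 2.39, and it was below 1 at 4 (Tmem131, Smpd4, Dcp1a and Cnst). The genes were chosen for high near values, so a lower far value at most of them is no finding, and the far value was above the near one at 20, 21 and 3 genes.

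**Figure D4:**
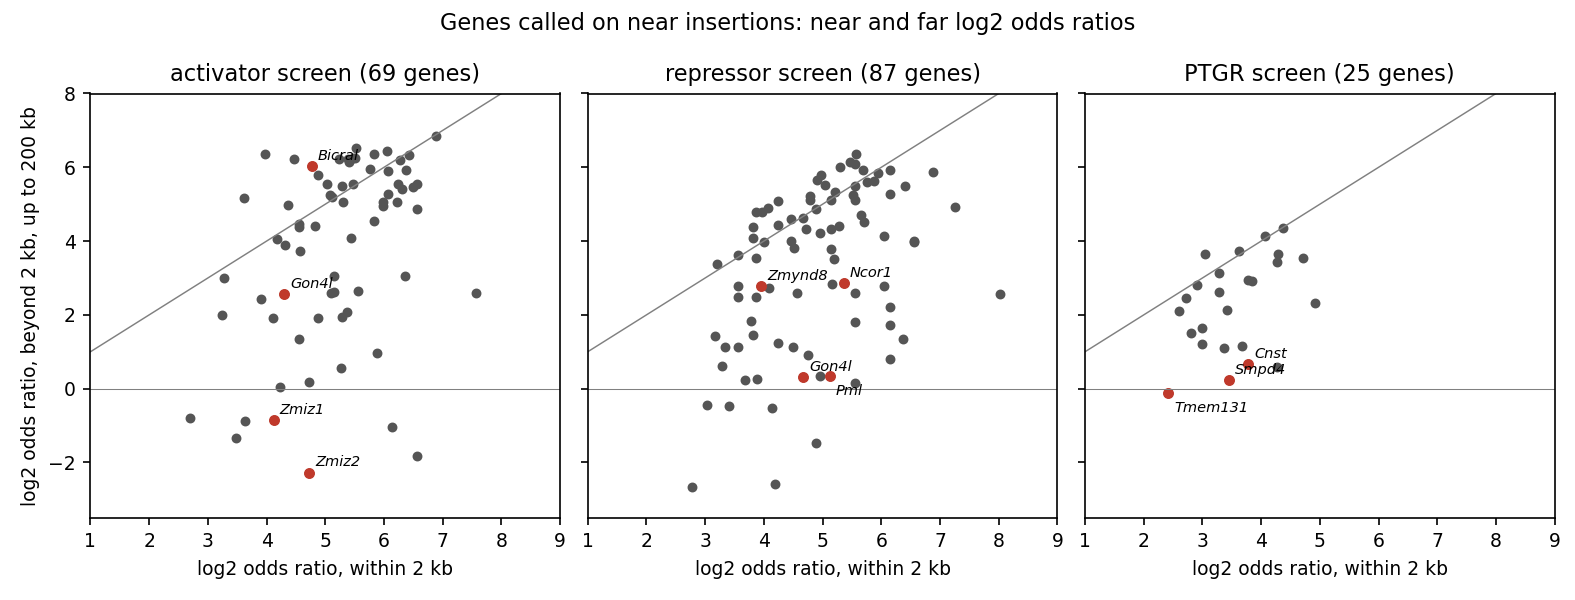
Each point is a gene called on near insertions, with its log2 odds ratio for insertions within 2 kb on the horizontal and for insertions farther away, up to 200 kb, on the vertical axis, for genes where both could be computed. The grey diagonal marks equal values, and the labelled genes are in red, among them Zmiz1 at 4.12 and -0.86 and Gon4l in the repressor screen at 4.67 and 0.31.

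Near insertions of leading genes were often gathered at 1 acceptor. At Bicral exon 5 took 137 of 297 sorted near insertions (46.1%) and 48 of 275 in the background (17.5%), while exon 7 took 6.73% and 24.4%. From exon 5 on, 43.1% of the coding sequence remained in the longest coding transcript. At Morc1 exon 21 of 27 took 59.9% of sorted and 29.4% of background near insertions, with 25.7% of the coding sequence left, and exon 19 took 16.5% and 4.91%. At Ncor1 exon 23 took 34.8% and 16.0%. In all, 2 acceptors of Ncor1 are numbered exon 2, of which one took 51.3% of sorted and 39.4% of background near insertions and the other 0 and 17 insertions. Zmynd8 exon 14 took 59.4% and 47.4%, Relb exon 3, whose listed start is not preceded by AG in GRCm38, 84.9% and 36.0%, Setd1b exon 2 92.6% and 52.6%, and Kdm2b exon 2 83.3% and 38.9%. At Maco1 exon 7 of 11 took 88.0% in sorted and 83.8% in the background, and Foxo6 and Gm35315 had all near insertions of both kinds at exon 2. Differences between these shares were not tested.

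**Figure D5:**
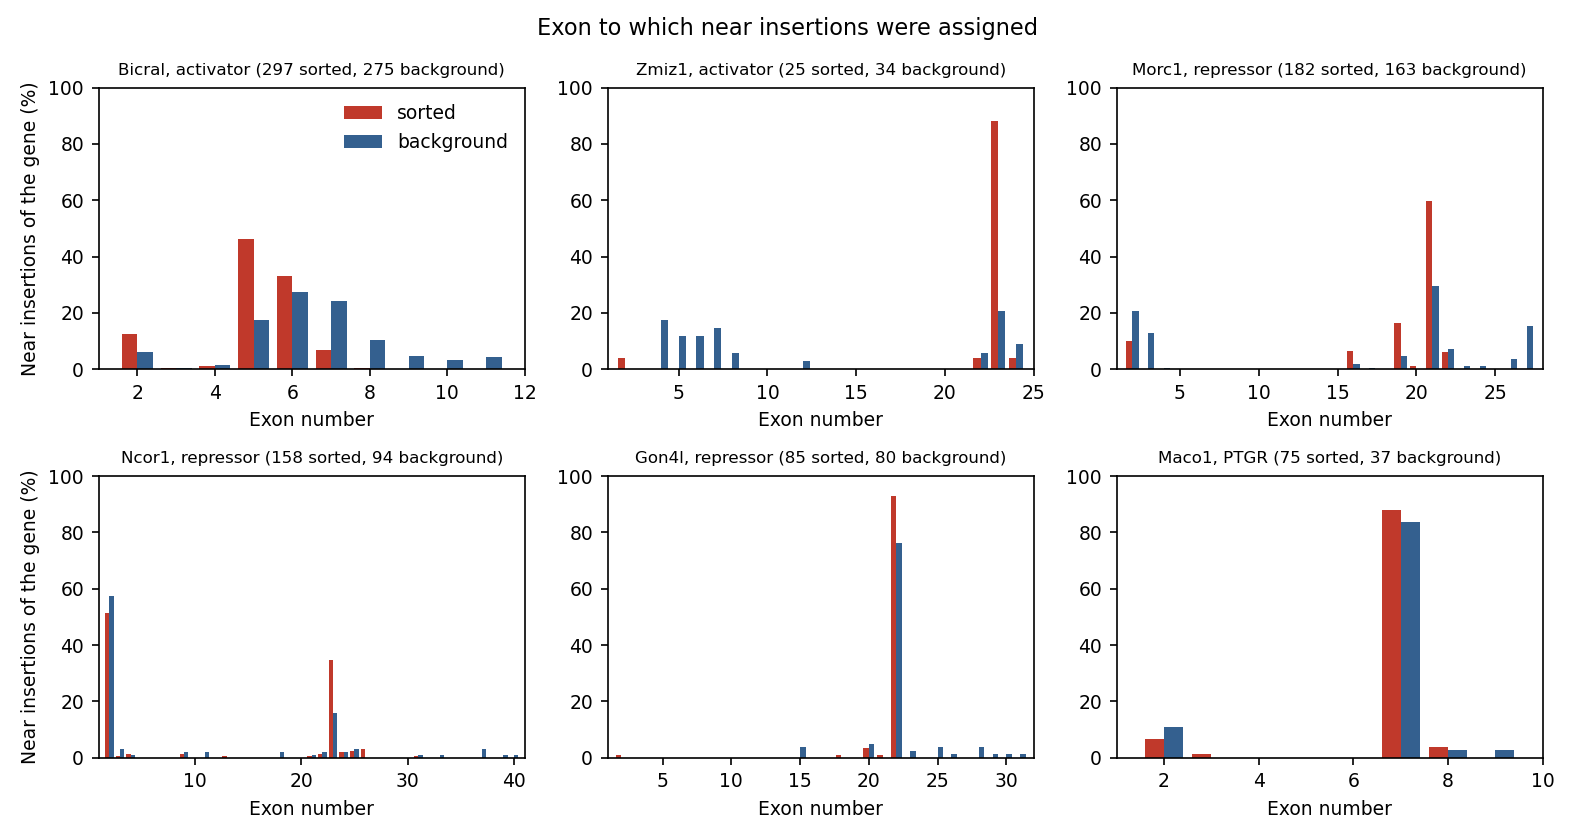
Percent of a gene's near insertions assigned to each exon number, for both sorted replicates summed and for the 6 unsorted libraries summed, at 6 genes with the numbers of insertions above each panel. Bars for Zmiz1 show 88.0% of sorted near insertions at exon 23 against 20.6% in the background, and those for Gon4l 92.9% at exon 22 against 76.2%.

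With the strand reversed, fewer genes were called on near insertions, namely 19 of 95 for the activator (20.0%), 24 of 95 for the repressor (25.3%) and 6 of 1087 for the PTGR screen (0.552%). One gene in each screen was called in both orientations, Ldb1, Zbtb45 and Morc1. By construction, a reversed near insertion can be assigned only to another gene in the orientation as mapped. At each gene called with the strand reversed, all such insertions were assigned to the same other gene. For 15 of the 19 activator genes and 17 of the 24 repressor genes, that gene was itself called on its insertions within 200 kb, and for 3 of the 6 PTGR genes. These counts stand without the share of all genes called within 200 kb. Whether the other gene accounts for a reversed call was not tested. Pgp, with 35 reversed near insertions, faced E4f1 at all 35, Fuz faced Med25 at all 33, and Kat5 faced Rela at all 17. In the repressor screen all 149 reversed near insertions at H2-M5 were assigned to Zfp57 in the orientation as mapped, and all 23 at Nup85 to Sumo2. These genes were picked after their values had been seen.

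Morc1 was called on near insertions in 2 screens, whose comparisons share the background. For the repressor it had 182 near insertions and 1 reversed near insertion in the sorted libraries, against 163 and 129 in the unsorted ones. PTGR sorted libraries had 117 and 73 near insertions, and 168 reversed near insertions, and both orientations were called, with log2 odds ratios of 3.28 ± 0.15 and 3.41. It is therefore not among the leading PTGR genes above.

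Single positions were seldom found again. Of the near positions, 5559 were in 2 libraries, 523 in 3, 4 in 6 and 2 in 7, the highest number. Those in the most libraries are shown with the listed base in capitals, in 30 bases of the strand of the insertion.
Nop58, chr1:59695229-59695258, plus strand: atcccagcacttggAaagctaaaggcaggc
Gon4l, chr3:88897250-88897279, plus strand: ttagtcacagcaccCacatggctactcttg
Zmynd8, chr2:165809004-165809033, minus strand: tgcagctgctaccatCttccctttttcatt
Gon4l, chr3:88897339-88897368, plus strand: atctacacacatgcAaaacttaaaaatgat
Mid1, chrX:170005186-170005215, plus strand: gtttggctttgtttGgatgcagggattcag
The Nop58 position, 734 bp before exon 4, was in 7 libraries, of which 2 were sorted. The first Gon4l position, 840 bp before exon 22, was also in 7, among them the 4 sorted libraries of both TetR screens, and the other Gon4l position, 751 bp before the same exon, was in 6, again with these 4. The Zmynd8 position was in 6, including both repressor sorted libraries. At Mid1 the base shown and the next one were each in 6 libraries, with 1 and 2 sorted ones, and 91.3% of its 207 background near insertions were assigned to exon 10. All of these positions lay in introns.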

How the data were processed

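Each of 3 screens had 2 sorted and 2 unsorted libraries, in which insertion sites were read out by sequencing of inverse PCR products. The authors trimmed reads (Trim Galore 0.6.0), aligned them to mm10 with Bowtie2, removed duplicates and low-quality alignments (SAMtools 1.9), and matched each insertion with the nearest exon downstream, first exons left out, among protein-coding transcripts of GENCODE. The deposited lists give 1 line per insertion with its gene, exon number and distance, and the deposited tables give insertion counts per gene, which the authors summed over replicates. Columns with the authors' odds ratios and adjusted p-values were not used. The deposited sums equalled the counts made here at 99.99% of genes for the activator, 99.96% for the repressor and 79.3% for the PTGR sorted libraries, where repeated lines had been counted.

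Each position was counted once per library (Python 3.11.15, pandas 2.3.3). Near insertions lay at most 2000 bp from the exon and the denominator of near shares was all insertions within 200 kb. Depth was 1652 to 23383 near insertions per library. Genes with at least 3 sorted near insertions were tested with a one-sided Fisher's exact test (SciPy 1.17.1) and Benjamini-Hochberg adjustment over all tested genes, and called at an adjusted p under 0.001 where the log2 odds ratio was no lower than 1. Near shares at a gene needed 10 insertions on each side and an adjusted p below 0.05. Shares of libraries were compared with an exact permutation test that exchanged labels within screens. Counts were also fitted with edgeR 4.0.16 and DESeq2 1.42.0 (R 4.3.3) for genes with at least 5 near insertions over a screen's 4 libraries. The tests per gene were tested on simulated counts without spread between replicates beyond counting error. Those counts could not show how the tests behave where replicates differ by more. Per the methods, the unsorted cells of a screen were set aside from the transduced cells that were then sorted, so replicate numbers may pair libraries. Deviations of same-numbered libraries from their group means correlated at 0.137, -0.00966 and 0.178 (activator, repressor, PTGR), and shared positions followed the numbers in the activator and PTGR screens. Paired values are therefore given beside the results they change.

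The genes named were, per screen, the 10 with the most sorted near insertions among those called, with that odds ratio also reached in each replicate and not called with the strand reversed, the genes that the study names, the 3 called genes with the largest rise and the 3 with the largest fall in near share, and the positions found in the most libraries. Some results that this rule or the gene lists gave are not reported here. The near insertions and all gene lists were chosen with earlier results of these data known. Exon positions and places in genes came from GENCODE vM21, an earlier release than that of the authors, and sequences from the RefSeq copy of the same assembly. Alternatives were other distance limits, minimums, thresholds, backgrounds and ways to count a position, and each library left out in turn.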

Additional observations from a re-analysis of the deposited data

Results flagged for a closer look

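Among the 6 unsorted libraries, PTGR unsorted replicate 2 stood apart in its share of reversed near insertions, with 9.31% against 8.39% to 8.70% in the other 5. Chance alone sets apart about 1 in 20 groups of this size.

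The share of near insertions assigned to exon 10 or later moved in opposite directions in 2 screens. Sorted minus unsorted was -4.51 percentage points in the activator screen, where both sorted replicates (18.3% and 15.7%) lay below the unsorted ones (21.7% and 21.3%), and 1.79 points in the PTGR screen, where both sorted replicates (23.9% and 21.9%) lay above (21.2% and 21.1%). The difference between the screens was not tested.

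The median distance to the exon was longer by 160.25 bp in the sorted libraries of the repressor screen and differed by -16.0 bp in the PTGR screen, with no overlap of sorted and unsorted replicates in either. This difference was not tested either. At the called repressor genes the medians were 1066 and 1105 bp in the sorted and already 1087.5 and 1032 bp in the unsorted libraries of that screen.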

How the results depend on the processing

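With edgeR and no replicate block at an adjusted p below 0.001, 36 activator, 42 repressor and 0 PTGR genes were called, and with DESeq2 0, 20 and 1, beside 70, 59 and 20 genes that were higher by 1 or more on the log2 scale with an unadjusted p under 0.05. At an adjusted p below 0.05, a threshold added after seeing the data, edgeR gave 63, 62 and 0 genes and DESeq2 52, 44 and 2. Of the DESeq2 fits, the activator and repressor ones left many adjusted p-values undefined (1824 and 1304 genes). Leaving out 1 library gave 53 to 83 activator, 55 to 97 repressor and 18 to 25 PTGR calls by Fisher's exact test, the lowest without activator sorted replicate 2, repressor sorted replicate 1, and either PTGR sorted replicate. PTGR calls were 15 with a limit of 1000 bp, 42 with 5000 bp, 12 against only the PTGR unsorted libraries and 43 at an adjusted p below 0.05.

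With the number as a block, edgeR called 25, 30 and 0 genes at an adjusted p below 0.001 and 34, 42 and 0 below 0.05. At an unadjusted p below 0.05, 28 PTGR genes were higher by 1 or more on the log2 scale, against 27 without the block. With the pairing kept, the difference of 1.79 points in near share had an exact permutation p = 0.0625, that of -1.22 points in reversed near share p = 0.0938 and that of 2.68 points in exon 2 share p = 0.312, with 64 arrangements.

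Genes with a higher near share numbered 15 (activator), 18 (repressor) and 1 (PTGR) with a limit of 1000 bp, 42 and 47 with 5000 bp in the first 2 screens, 13 and 0 in the activator and PTGR screens against their own unsorted libraries, and 3 in the PTGR screen with positions within 5 bp merged. Without 1 sorted replicate they numbered 4 to 15, 13 to 22 and 3 to 6. Genes with a lower share numbered 1, 0 and 1 with 1000 bp, 1 and 6 in the activator and repressor screens with 5000 bp, and 0 in each screen against its own unsorted libraries. They were 0 in the repressor screen with a minimum of 5 insertions or with merged positions, and 0 to 2, 0 to 0 and 0 to 1 without 1 sorted replicate. Reversed calls were 11 in the activator screen with 1000 bp, 12 against its own unsorted libraries and 13 in the PTGR screen with 5000 bp. Without 1 sorted replicate they were 11 to 11, 16 to 18 and 5 to 8.

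The near share difference was 0.768 points with 1000 bp (exact permutation p = 0.0926) and 1.50 to 2.08 points without 1 replicate number, where no p below 0.25 was possible. Those ranges were 0.908 to 4.45 for exon 2 and -1.55 to -0.891 for reversed insertions. With called genes left out, a setting chosen after seeing the data, the near share difference turned to -0.924 points. These genes had been called for many sorted near insertions in the same libraries. The near share of Bicral turned to 4.16 points higher without activator sorted replicate 2 and was -15.7 points without replicate 1, and that of Cnst turned to -2.76 points with 1000 bp. Causes of these changes were not tested. Among values of named genes that could still be tested, 1076 near log2 odds ratios kept their call status, 105 fell below and 4 rose above the threshold. Settings in which a gene was no longer tested were not counted. A gene that was not called could change sign and still count as kept. Of the near share changes of named genes, 133 kept direction and call, 42 fell below the threshold and 2 turned. Sorted libraries held few near insertions per gene, so that 1462, 1159 and 4269 genes with 1 or 2 could not be tested.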
